A study of Mus musculus with 6 samples.

Results

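The genes described here were the 52 of 8078 entries of the deposited table whose symbol begins with Il and a digit, Cxcl, Ccl, Ccr, Tnf, Csf and a digit, Lif, Osm or Nfkb, or is Ppbp. Entries that join several symbols were left out. The set holds 9 interleukins and gp130 cytokines, 14 of their receptor chains, 7 CXC and related chemokines, 3 CC chemokines, 1 atypical chemokine receptor, 6 TNF receptors, 3 TNF-induced proteins, 3 colony stimulating factors and receptors, and 5 NF-kB subunits and IkB proteins. TNF ligands were not analysed here. Ccrn4l matched by its letters alone, since it encodes nocturnin, an RNA-processing enzyme of the circadian clock.

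Cytokines are the secreted proteins with which epithelial, immune and stromal cells signal to each other. Many interleukins, some colony stimulating factors and the gp130 cytokines act through paired receptor chains that switch on JAK kinases and STAT factors. Chemokines draw in white blood cells through G protein-coupled receptors, and TNF receptors and the IL-1 receptor act largely through the transcription factor NF-kB. NF-kB is held in the cytoplasm by IkB proteins and induces several of its own inhibitors. Inflammatory signalling of this kind is known to accompany injury of the olfactory epithelium.

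The cells were horizontal basal cells, the reserve stem cells that lie on the basement membrane of the mouse olfactory epithelium. Injured libraries (n = 3) came from tissue taken 18 h after mice had breathed 180 ppm methyl bromide for 8 h, a gas that destroys the epithelium above these cells. Uninjured libraries (n = 3) came from mice without the lesion. All mice were 12 weeks old and carried KRT5-CreER and the Ai9 fl(Stop)TdTomato reporter on a B6 background, and tamoxifen had been given 2 weeks before cells were sorted on TdTomato. The keratin 5 promoter decides which cells carry the reporter, and each library pooled several animals, so p-values measure the spread between pools. Values are taken to be FPKM, a read density scaled to transcript length and library size, and the read depth behind them is unknown.

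Before the members are described, 3 features of the libraries bear on all of them. Injured replicate 2 stood apart: over 7987 genes its log2 values had a Pearson correlation of 0.73 and 0.75 with the other injured libraries, which correlated at 0.85 with each other. It also held neuronal RNA at 577 summed FPKM over 8 of 10 listed markers, against 156 and 131 in injured replicates 1 and 3 and 439 to 764 in uninjured libraries. Within that sum Stmn2 and Gap43, genes of immature neurons, were at 135 and 113 FPKM in injured replicate 2 and at most 18.7 and 13.1 in uninjured libraries. Stoml3, Adcy3, Cnga4 and Ano2, genes of mature neurons, were below all uninjured libraries in all 3 injured ones. Cnga2 and Gng13, of the same list, were below them in injured replicates 1 and 3 only. In injured replicate 2 these were at 15.14 and 129 FPKM, against 11.6 to 15.08 and 60.8 to 139 in uninjured libraries. Xist was at most 0.561 FPKM in injured libraries and at least 27.0 in uninjured ones, and Uty, a gene of the Y chromosome, was at least 7.10 and at most 3.71. The Y genes Eif2s3y and Ddx3y were at 18.8 and 6.67 in uninjured replicate 1, close to the lowest injured values of 21.1 and 7.74. Kdm5d, also a Y gene, overlapped, at 3.33 in uninjured replicate 1 and 2.85 in injured replicate 3. Injury and the sex make-up of the pools therefore cannot be told apart. Of 11 listed horizontal basal cell markers 9 had an entry, with Trp63, the master regulator of these cells, at 112, 99.5 and 140 FPKM in injured replicates 1 to 3, against 187, 194 and 157 in uninjured replicates 1 to 3. Of these 9 markers 4 had a positive and 5 a negative change, with a median of -0.02. Itga6, Itgb4 and Icam1 were above all uninjured libraries in injured replicates 1 and 3. In injured replicate 2 every one of the 9 was below all uninjured libraries. The median log2 difference of these markers from the uninjured mean was -0.08, -0.82 and 0.75 in injured replicates 1 to 3. For the members described here it was 0.44, -0.44 and 0.64. Summed FPKM over 2 of 9 gland markers, nearly all of it Plunc, was 2229, 1189 and 2314 in injured libraries and 4258, 4991 and 3036 in uninjured ones. Over 4 of 8 respiratory and ciliated markers it was 5536, 1625 and 2637 against 2863, 2685 and 2678. Of the markers of sustentacular (supporting) cells, Cyp1a2 and Muc2 were below all uninjured libraries in every injured one, and Krt18 was above them in injured replicates 1 and 3. The part of these cells in the members' levels was not tested. Markers of white blood cells were present too. Summed FPKM over 6 of 16 neutrophil and mast cell markers was 215, 57.8 and 160 in injured libraries and 76.4, 63.1 and 80.8 in uninjured ones, and over 10 of 22 macrophage and monocyte markers it was 112, 83.8 and 94.7 against 130, 164 and 264. None of these 16 markers stood at the lowest value of the table, 0.001, in any library.

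At 18 h after the lesion a few cytokines and chemokines were among the members with the most marked differences. The chemokine Ppbp, the IL-1 receptor antagonist Il1rn, the colony stimulating factor Csf3 and the chemokine Cxcl16 stood high in injured replicates 1 and 3 and far lower in injured replicate 2. Ccl20 and Cxcl12, chemokines that the uninjured cells held at some of the highest levels of the set, were low in all 3 injured libraries. Over the 6 libraries no member passed an adjusted p of 0.05 by limma in either direction. Of all 7987 genes tested 0.0125% passed. This was 1 gene, Xist, which was lower in injured libraries and is described above with the sex make-up of the pools. At an unadjusted p of 0.05, 4 of 51 members were higher, where 7.15% of all genes were, and 4 were lower, where 4.04% of all genes were.

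Without injured replicate 2 the same test on 5 libraries put 5 of 50 members higher, Ppbp, Il1rn, Csf3, Cxcl16 and Osmr, where 3.52% of all genes were called. It put 2 of 50 lower, Ccl20 and Cxcl12, where 1.17% of all genes were called. Of the 5 higher, Ppbp, Il1rn and Csf3 passed the filter on low values only through their injured libraries. The library left out was below every uninjured one for 32 of 51 members. The count of 5 of 50 is therefore a description and not a test of the members. Over all alternative settings, block and weights included, the limma adjusted p ran from 1.17e-04 to 0.801 for Ppbp, 3.19e-11 to 0.801 for Il1rn, 0.0154 to 0.807 for Csf3, 0.00842 to 0.737 for Cxcl16 and 0.0207 to 0.840 for Osmr. It ran from 1.11e-06 to 0.320 for Ccl20 and 0.0264 to 0.526 for Cxcl12. Tnfrsf9 did not reach the mean of 1 FPKM required for testing, which leaves 51 members over the 6 libraries. Of these, Csf2rb, Csf3, Il17rb, Il1rn, Ppbp and Tnfrsf10b had an uninjured mean below 1 FPKM and were tested only through their injured values. The median change over the 51 members was 0.23 on the log2(FPKM + 1) scale, which compresses differences at low levels, beside 0.16 for all genes tested. Without injured replicate 2 it was 0.57, beside 0.18.

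**Figure D1:**
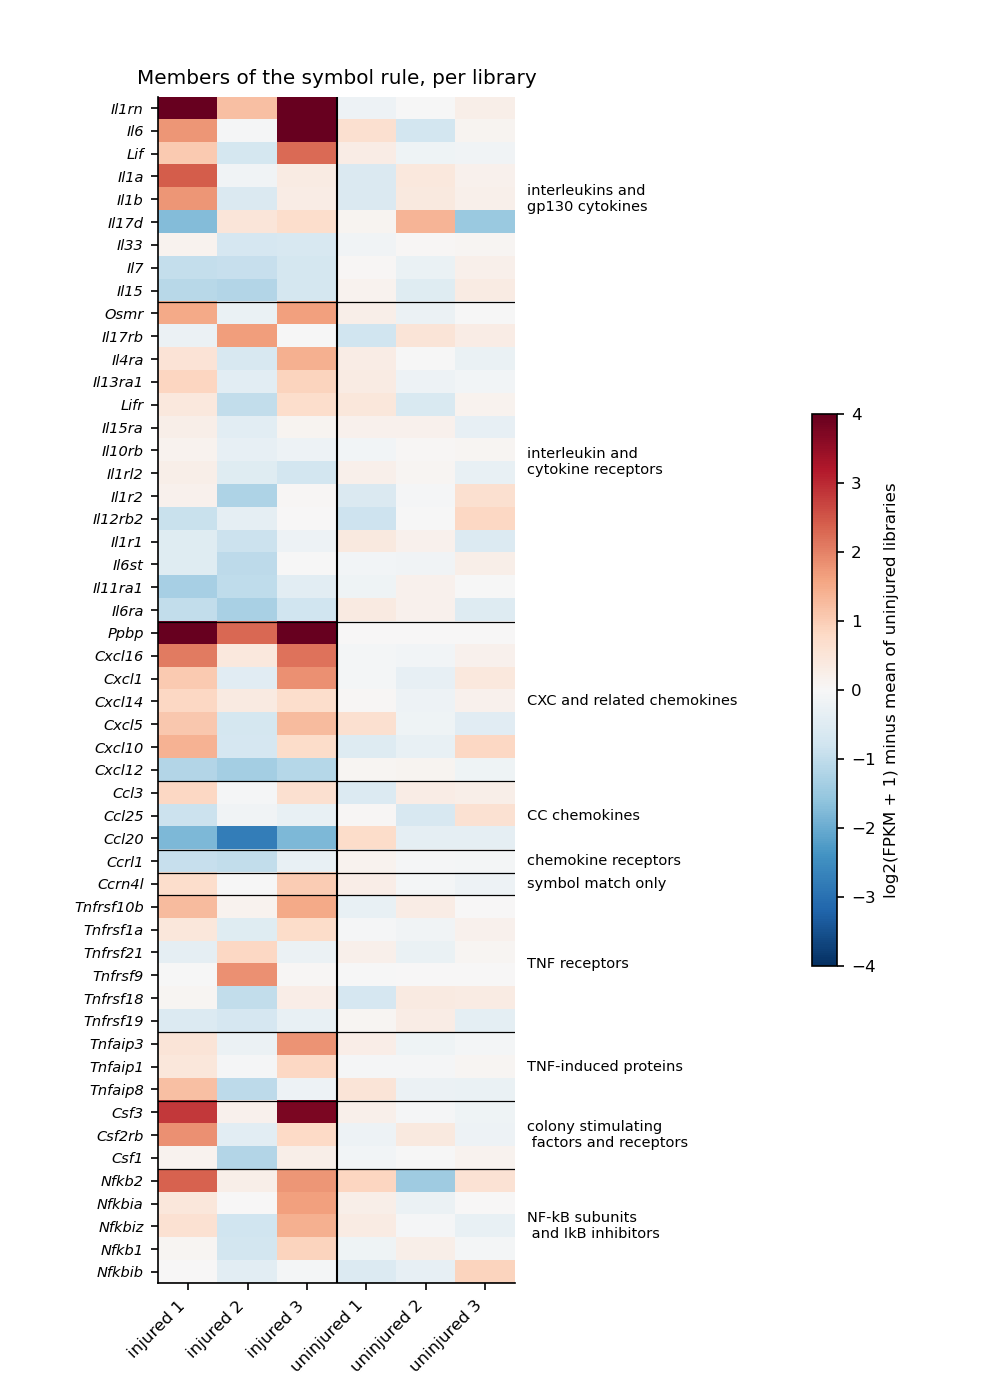
Each row is a member and each column a library, with injured libraries on the left, and colour gives log2(FPKM + 1) minus the mean of the 3 uninjured libraries (the scale ends at 4 in both directions). Red cells gather in injured replicates 1 and 3, whereas injured replicate 2 is pale or blue for most members.

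The injured libraries could be placed against the range of the uninjured ones gene by gene. Injured replicate 1 was above every uninjured library for 31 of 51 members (60.8%) and injured replicate 3 for 25 (49.0%), where all genes tested gave 42.8% and 44.7%. Injured replicate 2 was above for 6 members (11.8%), where all genes gave 33.9%, and below every uninjured library for 32 (62.7%), where all genes gave 30.6%. Every one of the 9 horizontal basal cell markers with an entry was below all uninjured libraries in injured replicate 2 too. In 19 members (37.3%) injured replicates 1 and 3 were both above all uninjured libraries and injured replicate 2 was not, an arrangement that 17.4% of all genes showed. The reverse, with replicates 1 and 3 below and 2 not, was found for 0 members and for 7.78% of all genes. The 3 injured libraries were all above the uninjured ones for 4 members, where 12% of all genes were, and all below for 7 members, where 6.75% of all genes were. For each of these 11 members the exact two-sided permutation test over libraries gave p = 0.1, the smallest that 3 libraries against 3 allow.

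**Figure D2:**
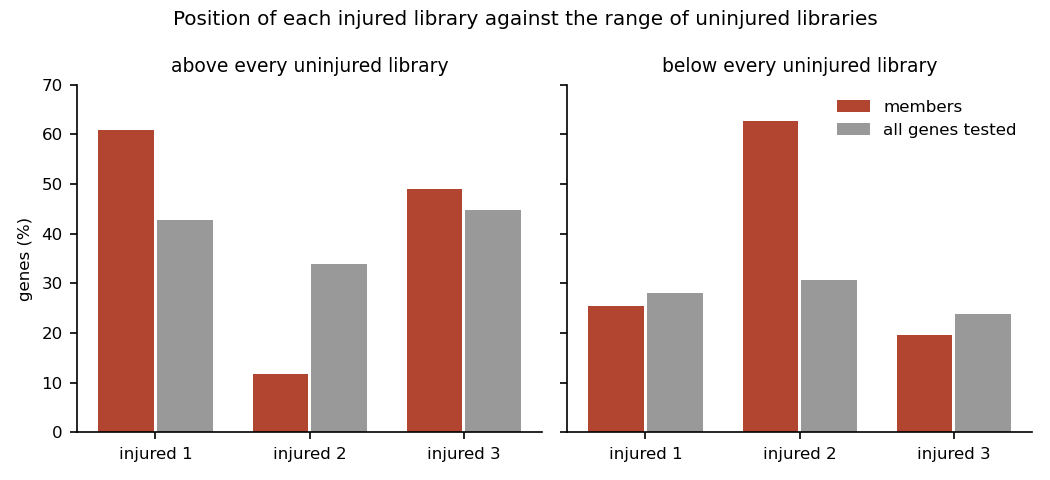
Bars give the percentage of members (51) and of all genes tested (7987) for which an injured library lay above (left) or below (right) all 3 uninjured libraries. Injured replicate 2 is below for 62.7% of members and above for 11.8%, unlike the other injured libraries.

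Because NF-kB and the AP-1 factors are known regulators of many genes in these families, the stretch of 250 bases before the RefSeq start (build GRCm38.p6) was searched on both strands in the 41 members with a promoter entry. The kappaB consensus was found in 8 of 41 promoters (19.5%), and in 4.26% of the 5819 promoters of genes tested and 3.75% of all 27018 RefSeq promoters. TGANTCA, a loose form of the AP-1 site in which N is any base, was found in 8 of 41 (19.5%), 4.21% and 6.87%. The match of Ppbp reads TGAATCA. Of the 17 promoters of members whose injured replicates 1 and 3 exceeded every uninjured library, 6 held the kappaB consensus (Csf1, Cxcl1, Il6, Nfkb2, Nfkbia and Tnfaip3) and 5 held TGANTCA (Il1rn, Il6, Lif, Ppbp and Tnfaip3). Of the 5 promoters of members low in all injured libraries, 1, that of Ccl20, held the kappaB consensus and 0 held TGANTCA. These matches describe letters, not bound sites. The windows below were chosen to show kappaB matches in members of both directions, and the TGANTCA matches of Ppbp and Il1rn, which had the largest positive changes. They are written 5′ to 3′ on the strand of the gene, end at the base before the start, and have the letters of either match in capitals.
Ppbp (chr5:90768268-90768517, plus strand): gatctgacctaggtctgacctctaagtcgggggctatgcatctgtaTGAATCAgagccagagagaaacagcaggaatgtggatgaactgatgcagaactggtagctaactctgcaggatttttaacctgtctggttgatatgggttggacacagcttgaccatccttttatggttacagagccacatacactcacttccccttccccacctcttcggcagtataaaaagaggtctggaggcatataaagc
Il1rn (chr2:24336610-24336859, plus strand): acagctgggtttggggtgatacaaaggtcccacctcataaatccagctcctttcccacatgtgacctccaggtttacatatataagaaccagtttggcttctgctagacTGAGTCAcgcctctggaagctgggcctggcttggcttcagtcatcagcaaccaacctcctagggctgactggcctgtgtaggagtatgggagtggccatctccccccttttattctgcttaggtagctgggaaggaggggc
Cxcl1 (chr5:90890995-90891244, plus strand): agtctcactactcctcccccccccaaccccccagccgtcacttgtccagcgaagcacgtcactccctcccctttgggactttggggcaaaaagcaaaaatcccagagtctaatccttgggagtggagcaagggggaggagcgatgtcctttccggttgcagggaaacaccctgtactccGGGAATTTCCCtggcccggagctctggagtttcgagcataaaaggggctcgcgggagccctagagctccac
Il6 (chr5:30012864-30013113, plus strand): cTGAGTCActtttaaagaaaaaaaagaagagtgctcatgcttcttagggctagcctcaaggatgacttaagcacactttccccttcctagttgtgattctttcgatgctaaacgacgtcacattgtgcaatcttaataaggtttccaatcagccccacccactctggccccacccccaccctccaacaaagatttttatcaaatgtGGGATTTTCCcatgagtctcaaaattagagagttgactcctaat
Nfkbia (chr12:55492648-55492897, minus strand): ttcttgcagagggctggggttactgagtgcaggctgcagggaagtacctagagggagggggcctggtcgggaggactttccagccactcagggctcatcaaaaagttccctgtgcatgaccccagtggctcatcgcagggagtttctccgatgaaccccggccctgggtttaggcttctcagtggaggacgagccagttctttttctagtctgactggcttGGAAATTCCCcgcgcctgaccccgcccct
Tnfaip3 (chr10:19015411-19015660, minus strand): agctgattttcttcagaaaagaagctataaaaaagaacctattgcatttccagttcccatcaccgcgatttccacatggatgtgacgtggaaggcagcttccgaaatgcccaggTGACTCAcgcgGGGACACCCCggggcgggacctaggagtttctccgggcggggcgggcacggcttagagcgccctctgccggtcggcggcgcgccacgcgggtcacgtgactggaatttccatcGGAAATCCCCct
Ccl20 (chr1:83116516-83116765, plus strand): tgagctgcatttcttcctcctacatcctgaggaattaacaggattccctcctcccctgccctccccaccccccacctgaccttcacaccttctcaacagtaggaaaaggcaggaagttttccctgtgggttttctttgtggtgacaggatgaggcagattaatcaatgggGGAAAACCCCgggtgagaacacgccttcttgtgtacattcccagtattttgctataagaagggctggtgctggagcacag

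In the Cxcl1 window a match on each strand overlaps the other, 60 bases before the start. The kappaB match of Il6 lies 34 bases and that of Nfkbia 19 bases before the start, and that of Ccl20 lies 70 bases before it. Tnfaip3 holds 2 separate kappaB matches and a TGANTCA match, and Ppbp and Il1rn hold a TGANTCA match with no kappaB match in this window.

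Among the interleukins and gp130 cytokines, the antagonist stood out and the agonists varied. Il1rn, which encodes a secreted protein that occupies the IL-1 receptor without activating it, was at 43.1, 2.25 and 36.8 FPKM in injured replicates 1 to 3, against 0.221, 0.410 and 0.661 in uninjured replicates 1 to 3. All injured libraries were above all uninjured ones, and replicate 2 was the lowest of them by a wide margin. The change was 3.63 ± 1.00 (SE) on the log2(FPKM + 1) scale with a limma adjusted p of 0.320. Without injured replicate 2 the change was 4.84 with an adjusted p of 0.0011, and the mean level of injured replicates 1 and 3 was 92.6 times the uninjured mean. Its promoter window, shown above, holds a TGANTCA match.

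The IL-1 agonists did not share this pattern. Il1b, the IL-1 form secreted after inflammasome cleavage, was at 24.5, 4.03 and 8.27 FPKM in injured libraries and 3.99, 8.77 and 7.66 in uninjured ones, so only injured replicate 1 was clearly outside the uninjured range. Il1a, an IL-1 form kept in epithelial cells and released on damage, was at 10.4, 0.933 and 1.71 against 0.421, 1.87 and 1.41. It too was high in injured replicate 1 alone. That library also had the highest level of the leukocyte antigen Ptprc, at 17.9 FPKM against 0.343 and 1.16 in the other injured libraries and 0.800 to 3.52 in uninjured ones, and of the neutrophil granule gene Ngp, at 17.7 against at most 3.01 elsewhere. Its summed macrophage and monocyte markers, which include Ptprc, were at 112 FPKM, below the 130 to 264 of the uninjured libraries, and 5 of the 10, H2-Ab1, H2-Aa, H2-Eb1, Cd74 and Laptm5, were below all uninjured libraries in every injured one. The part of white blood cells in the Il1a and Il1b values was not tested. In injured replicates 1 and 3 the FPKM of Il1rn exceeded that of Il1b, and in the other 4 libraries it was below it. Il33, a nuclear alarmin of the IL-1 family, was at 20.0, 11.0 and 11.3 against 16.3, 18.7 and 19.2, with overlapping groups (limma adjusted p = 0.618).

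Il6 and Lif, which signal through the shared chain gp130, followed the arrangement of injured replicates 1 and 3 above and 2 not. Il6 was at 14.9, 3.54 and 77.0 FPKM in injured libraries, against 6.36, 1.81 and 4.02 in uninjured ones, and injured replicate 3 alone held the highest value by far. Its change was 1.92 ± 1.08 with a limma adjusted p of 0.555, and 2.91 with an adjusted p of 0.0929 without injured replicate 2 (1.00e-04 to 0.885 over all alternatives). Lif, a cytokine known from other work to act on olfactory neuronal precursors, was at 5.73, 1.01 and 14.6 against 3.03, 1.89 and 1.94, with injured replicate 2 the lowest of all 6 libraries.

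Il7 and Il15, which sustain lymphocytes, were low in every injured library. Il7 was at 1.12, 1.20 and 1.51 FPKM in injured libraries, against 3.28, 2.45 and 3.73 in uninjured ones. Il15 was at 0.597, 0.528 and 1.12, against 2.81, 1.48 and 3.37. In both genes the groups did not overlap, and the injured mean was 0.405 times the uninjured mean for Il7 and 0.292 times for Il15, with limma adjusted p of 0.492 and 0.512. In bulk RNA, fewer cells of a type that makes a transcript and less of it per cell cannot be told apart. Il17d ranged from the table's lowest value to 4.38 FPKM in injured libraries and from 0.198 to 7.53 in uninjured ones, with no order between the groups.

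**Figure D3:**
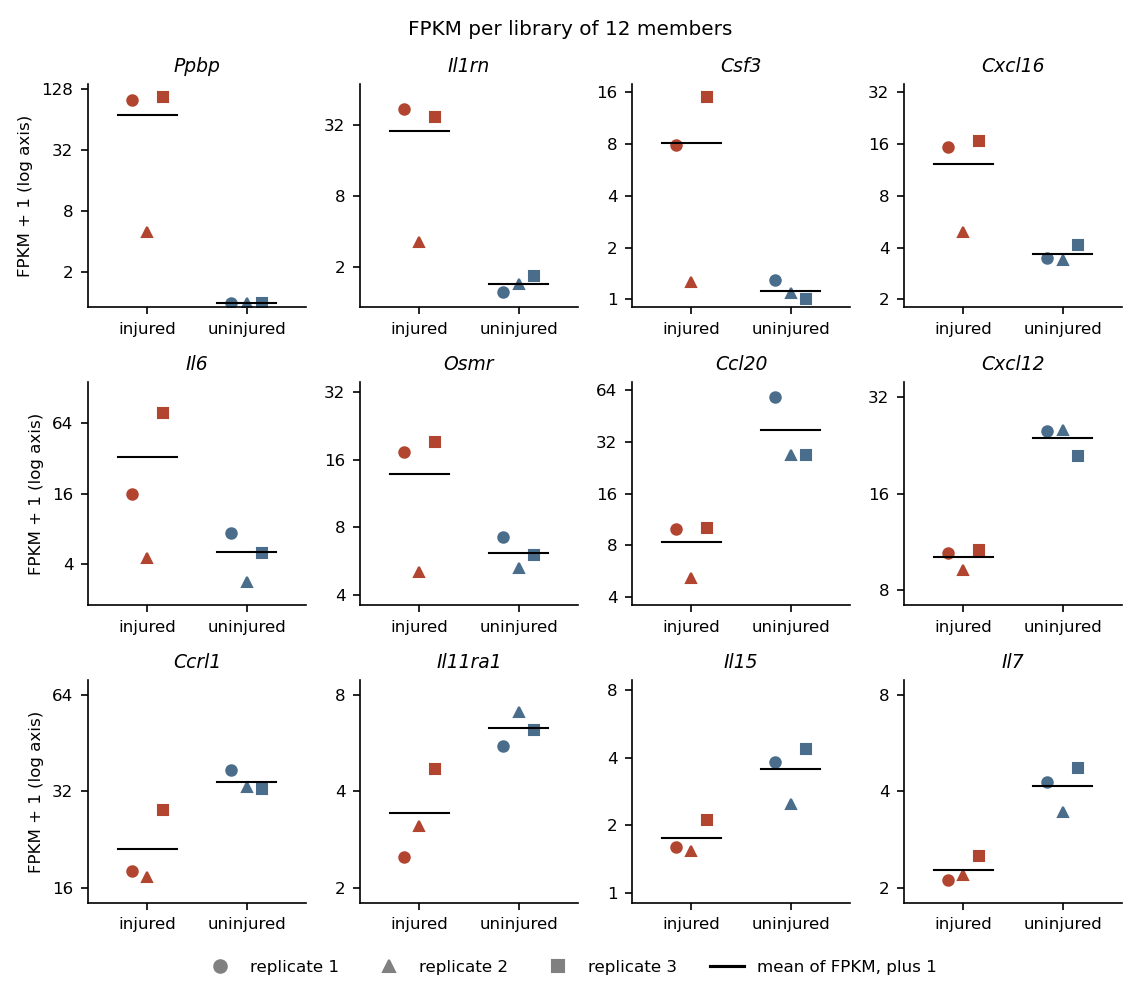
Points give FPKM + 1 of 12 members on a log axis, with injured libraries left of uninjured ones, a marker shape for each replicate and a line at the group mean. Ppbp, Il1rn, Csf3, Cxcl16, Il6 and Osmr are high in injured replicates 1 and 3, and the 6 members from Ccl20 to Il7 are below all uninjured libraries in all 3 injured ones.

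Of the 14 receptor chains, 5 had a positive and 9 a negative change, with a median of -0.22, and the receptors that use gp130 differed among themselves. Osmr, the oncostatin M receptor, was at 16.3, 4.05 and 18.3 FPKM in injured libraries and 6.22, 4.25 and 5.05 in uninjured ones. Injured replicates 1 and 3 were above all uninjured libraries, at a mean 3.35 times theirs, and injured replicate 2 was just below them. The change was 0.96 ± 0.49 (limma adjusted p = 0.492), and 1.58 with an adjusted p of 0.0207 without injured replicate 2. Il6st, which encodes gp130, was the most abundant member, at 72.6, 48.8 and 102 FPKM against 95.0, 93.3 and 121, with overlapping groups (adjusted p = 0.575).

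The chains that give gp130 its specificity for IL-6 and IL-11 were low after injury. Il6ra was at 1.17, 0.714 and 1.46 FPKM in injured libraries, against 4.48, 3.73 and 1.94 in uninjured ones. Il11ra1 was at 1.505, 2.12 and 3.68, against 4.53, 6.07 and 5.23. Neither gene's groups overlapped, with injured means at 0.329 and 0.461 times the uninjured means and limma adjusted p of 0.467 and 0.402. Lifr, the LIF receptor chain, was at 10.6, 3.42 and 13.2 against 11.0, 4.71 and 8.63, and its direction changed with the scaling of the libraries.

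Other receptor chains showed smaller differences. Il13ra1, a chain of the receptor for IL-4 and IL-13 that lies on the X chromosome, was at 34.4, 13.7 and 35.1 FPKM in injured libraries and 23.6, 16.1 and 17.1 in uninjured ones. Its partner Il4ra was at 4.58, 1.45 and 9.37 against 3.67, 2.78 and 2.19. In both genes injured replicates 1 and 3 were above, and injured replicate 2 below, all uninjured libraries. The IL-1 receptor Il1r1 was at 2.64, 1.80 and 3.37 against 5.56, 4.70 and 2.42, and the decoy receptor Il1r2 at 2.77, 0.422 and 2.47 against 1.24, 2.25 and 4.29. Neither separated the groups. Il1rl2, the receptor for IL-36, Il10rb, Il12rb2, Il15ra and Il17rb also overlapped between groups, with limma adjusted p between 0.762 for Il12rb2 and 0.982 for Il15ra.

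The chemokines with a CXC arrangement of cysteines included the member with the largest positive change, Ppbp. Ppbp encodes a chemokine precursor best known from platelets, whose products attract neutrophils. Its level in all 3 uninjured libraries was 0.001, the lowest in the table, and in injured replicates 1 to 3 it was 99.1, 3.96 and 106 FPKM, so no fold is given. The limma adjusted p was 0.306 over the 6 libraries and 1.17e-04 without injured replicate 2, with an SE of 1.27 and 0.23. The uninjured values were identical, so the spread seen within Ppbp came from the injured libraries alone. The second fit left out the injured library that differed from the others. Ppbp was tested only through its injured values, and the smaller p is not a measure of the spread between uninjured pools. Of 11 listed platelet markers 1 had an entry, the integrin Itga2b, at 0.885, 2.90 and 1.52 FPKM in injured libraries and 2.58, 7.37 and 2.43 in uninjured ones. The part of platelets in the Ppbp values was not tested.

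Cxcl16, a membrane-bound chemokine that also acts as a scavenger receptor, was at 14.4, 3.95 and 15.6 FPKM in injured libraries, against 2.48, 2.41 and 3.13 in uninjured ones. The groups did not overlap, and the injured mean was 4.23 times the uninjured mean. The change was 1.56 ± 0.46 (limma adjusted p = 0.306), and 2.13 with an adjusted p of 0.0093 without injured replicate 2. Cxcl14, a chemokine made by many epithelia, was at 6.49, 4.36 and 5.83 against 3.35, 2.65 and 3.74, again without overlap, at 1.71 times the uninjured mean (adjusted p = 0.492).

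The neutrophil attractants Cxcl1 and Cxcl5 were high in injured replicates 1 and 3 only. Cxcl1 was at 11.1, 3.28 and 19.9 FPKM in injured libraries and 4.47, 3.63 and 6.81 in uninjured ones. Cxcl5 was at 3.15, 0.204 and 3.76 against 2.08, 0.743 and 0.436. The limma adjusted p was 0.585 for Cxcl1 and 0.783 for Cxcl5. Cxcl10, which is induced by interferon, was at 13.7, 2.48 and 8.21 against 2.85, 3.51 and 8.92, and the groups overlapped. The summed neutrophil and mast cell markers had the same arrangement, at 215, 57.8 and 160 FPKM in injured libraries against 63.1 to 80.8 in uninjured ones. Much of that sum was Ltf, at 109, 26.1 and 112 against 59.1, 21.4 and 47.3. Singly, Ltf, S100a8, S100a9 and Cd177 had injured replicates 1 and 3 above all uninjured libraries and 2 not. Ngp did not, and Kit had the reverse, at 2.23, 7.51 and 1.31 against 2.45 to 3.06. The part of these cells in the levels of Ppbp, Cxcl1 and Cxcl5 was not tested.

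Cxcl12, the homeostatic chemokine that keeps progenitor cells in their niches, was the steadiest difference of the set. It was at 9.47, 8.28 and 9.69 FPKM in injured libraries, against 24.0, 24.3 and 20.0 in uninjured ones, with a wide gap between the groups and little spread within either. The change was -1.23 ± 0.24 with a limma adjusted p of 0.143, the injured mean was 0.402 times the uninjured mean, and without injured replicate 2 the change was -1.16 with an adjusted p of 0.0333. Stromal cells are a known source of Cxcl12, and summed FPKM over 5 of 9 listed fibroblast markers was 116, 84.7 and 43.9 in injured libraries against 131, 227 and 167 in uninjured ones. The lower sum came from Dcn, the matrix proteoglycan decorin, at 27.5, 62.5 and 15.3 against 116, 162 and 145, and the other 4 markers, Thy1, Fbln1, Col1a1 and Col1a2, had positive changes. Their part in the Cxcl12 difference was not tested.

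The CC chemokines had different patterns. Ccl20, which attracts dendritic cells and lymphocytes that bear CCR6, was at 9.02, 4.16 and 9.04 FPKM in injured libraries, against 57.0, 25.9 and 25.9 in uninjured ones. Every injured library was below every uninjured one, and uninjured replicate 1 stood well above the other uninjured libraries. The change was -2.11 ± 0.39 with a limma adjusted p of 0.133, and the injured mean was 0.204 times the uninjured mean. Without injured replicate 2 the change was -1.79 with an adjusted p of 0.0449. Its promoter window, shown above, holds a kappaB match like those of Cxcl1, Il6 and Nfkbia, whose levels differed in the other direction in injured replicates 1 and 3. Ccl3, a macrophage chemokine, was at 7.51, 3.63 and 6.44 against 2.26, 4.88 and 4.66, and Ccl25, a chemokine for gut and thymic T cells, at 0.897, 2.10 and 1.79 against 2.52, 1.18 and 4.16.

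Ccrl1, an atypical receptor that removes chemokines such as CCL25 and does not signal through G proteins, was well expressed and low after injury. It was at 17.2, 16.4 and 27.0 FPKM in injured libraries, against 36.4, 32.1 and 31.5 in uninjured ones. The groups did not overlap, with injured replicate 3 nearest to the uninjured ones, and the injured mean was 0.605 times the uninjured mean (change -0.73 ± 0.28, limma adjusted p = 0.380). Ccrn4l, which is no chemokine receptor, was at 4.22, 2.17 and 5.48 against 2.87, 2.04 and 1.79.

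**Figure D4:**
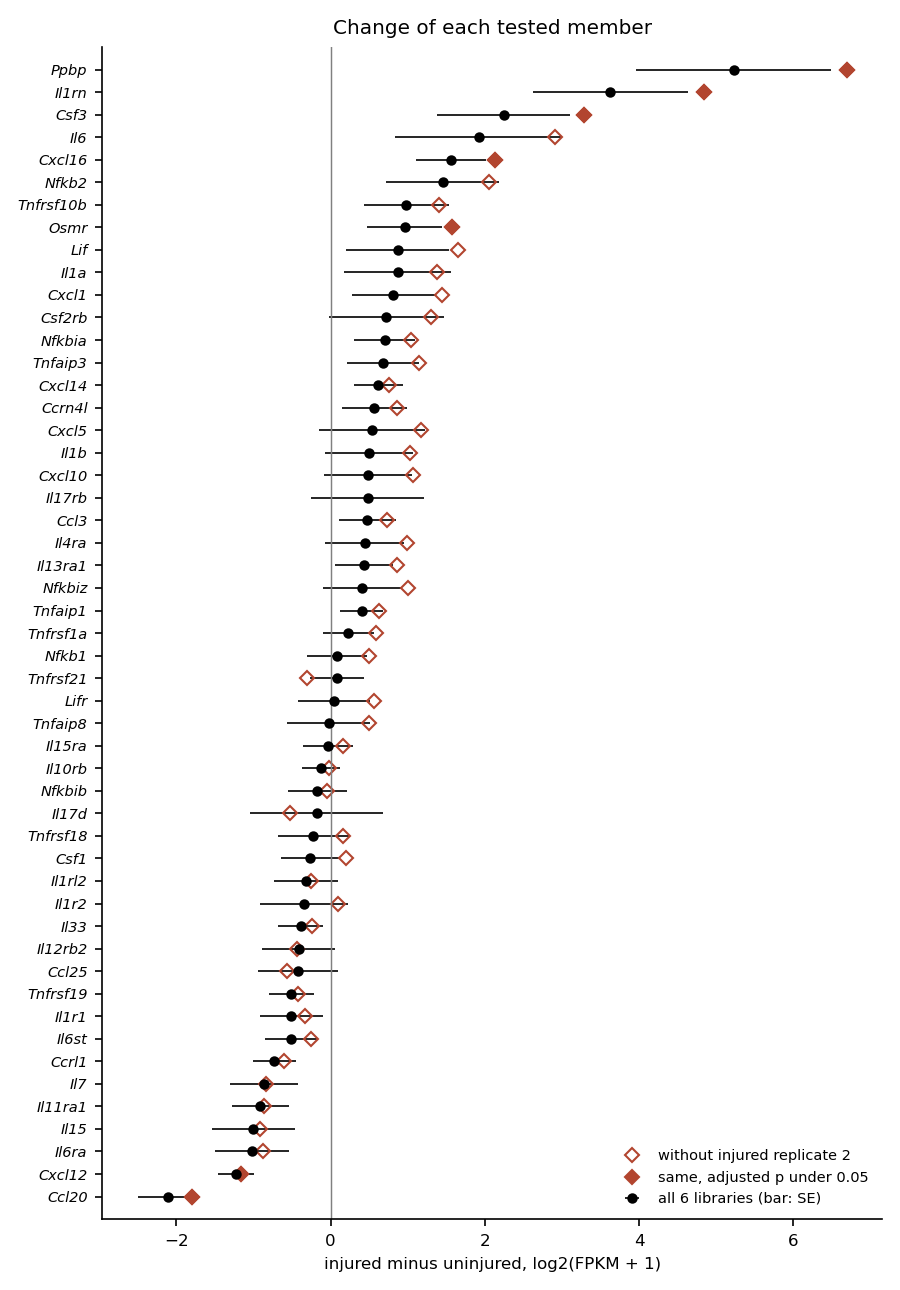
Black points give the injured minus uninjured change on the log2(FPKM + 1) scale for the 51 tested members, with bars of 1 SE from limma, and diamonds give the change without injured replicate 2, filled where its adjusted p is under 0.05. The 7 filled diamonds are Ppbp, Il1rn, Csf3, Cxcl16 and Osmr on the positive side and Cxcl12 and Ccl20 on the negative side. Ppbp, Il1rn and Csf3 were tested only through their injured values.

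Colony stimulating factors control the output and survival of granulocytes and macrophages. Csf3, the granulocyte factor, was at 6.92, 0.257 and 14.1 FPKM in injured libraries, and at 0.291, 0.0866 and the lowest value of 0.001 in uninjured ones. Injured replicates 1 and 3 were far above all others and injured replicate 2 lay within the uninjured range. The change was 2.25 ± 0.86 (limma adjusted p = 0.391), and 3.29 with an adjusted p of 0.0154 without injured replicate 2. Csf1, the macrophage factor, was at 10.2, 3.47 and 11.0 against 8.36, 8.94 and 10.1, and injured replicates 1 and 3 exceeded the uninjured range only narrowly. Csf2rb, the receptor chain shared by GM-CSF, IL-3 and IL-5 and a gene of myeloid cells, was at 4.31, 0.112 and 1.58 against 0.301, 0.979 and 0.313, highest in injured replicate 1.

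No TNF receptor separated the groups. Tnfrsf1a, the main receptor for TNF on epithelial cells and the most abundant of them, was at 33.2, 17.1 and 40.6 FPKM in injured libraries and 23.6, 21.8 and 27.4 in uninjured ones. Tnfrsf10b, the mouse receptor for the death ligand TRAIL, was at 3.75, 1.17 and 4.68 against 0.589, 1.39 and 1.00, with replicates 1 and 3 above the uninjured libraries and replicate 2 among them. Tnfrsf21, a death-domain receptor known as DR6, had another arrangement, at 6.16, 15.4 and 6.82 against 9.51, 6.70 and 8.65, with the highest value in injured replicate 2. Tnfrsf9, a co-stimulatory receptor, stood at 2.62 in injured replicate 2 and at no more than 0.0482 in any other library. Tnfrsf19, a receptor of epithelial stem cells in the mouse, was at 5.59, 4.97 and 6.74 against 9.06, 10.8 and 6.33 (limma adjusted p = 0.532), and Tnfrsf18 overlapped between the groups too.

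Of the 8 NF-kB subunits, IkB proteins and TNF-induced proteins, 5 were above all uninjured libraries in injured replicates 1 and 3 but not 2. This arrangement was found for 17.4% of all genes, and none of the 8 passed. Nfkbia, the inhibitor IkB-alpha and a direct target of NF-kB, was at 11.0, 7.77 and 25.9 FPKM in injured libraries and 9.21, 6.34 and 7.84 in uninjured ones (limma adjusted p = 0.537). Tnfaip3, which encodes the deubiquitinase A20 and is another feedback inhibitor, was at 8.91, 4.88 and 23.2 against 7.32, 5.19 and 5.63 (adjusted p = 0.594). In both the highest value by far was in injured replicate 3, and both promoter windows shown above hold kappaB matches. Nfkbiz, a nuclear IkB protein that assists transcription of secondary response genes, was at 31.6, 11.4 and 56.5 against 26.2, 19.8 and 16.6.

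The subunits and the remaining genes of this group varied. Nfkb1, the p105 and p50 subunit, was at 12.2, 6.42 and 22.2 FPKM in injured libraries and 9.96, 13.7 and 10.8 in uninjured ones, and its direction changed with the scaling of the libraries. Nfkb2, the p100 and p52 subunit, was at 12.7, 2.21 and 8.17 against 3.91, the lowest value of 0.001, and 2.99, with injured replicate 2 within the uninjured range and a change of 1.45 (limma adjusted p = 0.492). Nfkbib, IkB-beta, was at 10.6, 7.59 and 9.86 against 6.86, 8.14 and 20.5. Tnfaip1, an adaptor for a ubiquitin ligase, was at 17.7, 12.4 and 23.3 against 12.5, 12.5 and 13.4, and Tnfaip8, a regulator of cell survival, at 34.2, 6.42 and 12.4 against 20.8, 12.1 and 11.8.

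Genes of the same pathways outside the families were read the same way, and none of them passed over the 6 libraries. Without injured replicate 2, where 3.52% of all genes were called higher and 1.17% lower, Casp8 of the NF-kB signalling core, the cytokine Clcf1 and the NF-kB targets Plau, Plaur and Hbegf were called higher, and the receptor Cxcr7 was called lower. Hbegf was named after its values were seen. Of 34 tested genes of the NF-kB signalling core 29 had a positive change, with a median of 0.26, where 5027 of all 7987 genes had one, with a median of 0.16. The 2 with the smallest p were Casp8, an enzyme recruited by death receptors, at 15.6, 10.5 and 24.0 FPKM in injured libraries against 7.91, 7.40 and 8.44 in uninjured ones, and Tank, a scaffold of the kinase TBK1, at 13.6, 12.3 and 15.6 against 9.51, 7.87 and 8.01. In both genes all injured libraries, replicate 2 included, were above all uninjured ones. None of 18 genes of the JAK and STAT relay passed (median 0.04), and Socs2 and Socs5 had the smallest p, with limma adjusted p of 0.660 and 0.779.

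Of 10 other cytokine and chemokine genes none passed, with a median of -0.08, and the 2 with the smallest p differed in opposite directions. Cxcr7, an atypical receptor that takes up CXCL12, was at 11.4, 15.5 and 13.5 FPKM in injured libraries, against 30.6, 33.9 and 27.8 in uninjured ones (change -1.14, limma adjusted p = 0.176). Clcf1, a cytokine of the gp130 family, was at 8.48, 1.75 and 11.0 against 1.12, 1.07 and 1.59 (change 1.59, limma adjusted p = 0.365). Neither gene's groups overlapped. The 3 other tested receptors of the TNF superfamily, Ngfr, Fas and Ltbr, all had positive changes that did not pass. Among 20 known NF-kB targets outside the families the median was 0.33 and none passed. Plau and Plaur, the protease urokinase and its receptor, had the smallest p, with limma adjusted p of 0.381 and 0.402.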

How the data were processed

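PolyA RNA of sorted cells was made into Nextera XT libraries, per the labels. The submitters' processing notes name FastQC, TopHat, Cuffdiff and mm9, without versions, roles or annotation. The table names no unit, and its deposited values are read as FPKM computed by the authors on the grounds of Cuffdiff and the heading of the symbol column. Summed FPKM ran from 164265 to 231755 per library, and the depth is unknown. For 8078 entries, FPKM was taken to log2(FPKM + 1), the 7987 genes averaging 1 FPKM or more were tested with limma 3.58.1 in R 4.3.3 (trend and robust eBayes, no covariate), and p was adjusted by Benjamini-Hochberg over all of them at 0.05, after a test on simulated data. Because the file holds FPKM and not counts, no count model was used.

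Members and gene lists were chosen with earlier results of these data known, and the platelet list was added last. Values in every library were set to be given for members whose groups do not overlap, with an unadjusted p under 0.05, past 0.05 without injured replicate 2, or among the 2 most abundant of their role; others were added to show a pattern. Same-numbered libraries did not deviate together (r of -0.09, 0.07 and -0.08), so the numbers were not used as pairs. Alternatives were dropping each library, a replicate block, other filters, scalings, pseudocounts and thresholds, library weights, plain limma, and leaving out the entry Mir703. Promoters of 41 of 52 members came from RefSeq (GRCm38.p6), not the build of the files, and hold 250 bases before the start. Plots were made in matplotlib 3.10.9 under Python 3.11.15.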

Additional observations from a re-analysis of the deposited data

How the results depend on the processing

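Over the 6 libraries no member was called under no filter, a mean of at least 5 FPKM, either scaling, either pseudocount, plain limma, a threshold of 0.01 or with Mir703 left out. With the replicate block, which the data do not call for, 134 genes were higher (1.68%) and 87 lower (1.09%), and 4 members were higher (Cxcl16, Il1rn, Il6 and Ppbp) and 2 lower (Ccl20 and Cxcl12). With library weights 85 genes were higher (1.06%) and 49 lower (0.613%), and 4 members were higher (Csf3, Cxcl16, Il1rn and Ppbp) and 2 lower (Ccl20 and Cxcl12). Genes called lower were 3 after upper-quartile scaling, 4 after quantile normalization and 2 with a pseudocount of 0.1, and plain limma called 3 higher and 3 lower. Leaving out 1 library gave 0 to 278 genes higher and 1 to 92 lower, 0 to 5 members higher and 0 to 2 lower, with the highest counts all without injured replicate 2. Members not overlapping above were 4 to 23 (23 without injured replicate 2, where 29.7% of all genes did not overlap) and below 7 to 10. Below, they were 3 with a mean of at least 5 FPKM, where 27 members were tested, and 11 with Mir703 left out. The share of all genes was not computed for the other counts, so they cannot be set against it. Over the 6 libraries that share was 12% above and 6.75% below. The members' median change was -0.01 without injured replicate 3 and 0.57 without injured replicate 2.

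The median change of all genes was 0.16, and -0.01 after upper-quartile scaling, 0.01 after quantile normalization and 0.02 with Mir703 left out, and the members' median was 0.05, 0.04 and 0.07. In these 3 settings the direction reversed for Lifr (-0.13, -0.19 and -0.11), Nfkb1 (-0.0923, -0.13 and -0.068) and Tnfrsf21 (-0.0872, -0.0547 and -0.0598). With library weights it reversed for Csf1 (0.0064), Il15ra (0.0668), Il17rb (-0.092), Tnfaip8 (0.38) and Tnfrsf21 (-0.0639). Leaving out 1 library reversed the direction of further members whose change was small: the lowest and highest changes were -0.52 and 0.20 for Csf1, -0.82 and 0.0048 for Il12rb2, -0.20 and 0.16 for Il15ra, -0.92 and 0.59 for Il17d, -0.14 and 1.04 for Il1b, -0.65 and 0.0993 for Il1r2, -0.0505 and 0.99 for Il4ra, -0.28 and 0.56 for Lifr, -0.32 and 0.50 for Nfkb1, -0.45 and 0.28 for Nfkbib, -0.0953 and 1.01 for Nfkbiz, -0.63 and 0.49 for Tnfaip8, -0.57 and 0.17 for Tnfrsf18, -0.014 and 0.58 for Tnfrsf1a and -0.2998 and 0.30 for Tnfrsf21. None of these genes passed in any of these settings, and the cause was not tested.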
